A study of Lemna gibba with 6 samples.

Results

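Asparagine synthetase (glutamine-hydrolyzing) was examined as a gene family in fronds of the duckweed *Lemna gibba*, a small floating aquatic plant. Its members are the 6 genes, of 16340 with a row in the deposited expression table, to which the study's metabolic reaction list gives that enzyme name: LEMGIv51_A5_003834_1, LEMGIv51_A5_015125_1, LEMGIv51_A5_015127_1, LEMGIv51_A5_015128_1, LEMGIv51_A5_015129_1 and LEMGIv51_A5_015132_1. Axenic fronds of clone G3 7742a were grown under continuous light on half-strength Schenk and Hildebrandt medium, and polyA RNA was sequenced from 3 biological replicates of each condition. Under the ONS condition (organic nitrogen source) the medium held 6.85 mM glutamine and no nitrate or ammonium. Under the INS condition (inorganic nitrogen source) it held 12.4 mM nitrate and 1.3 mM ammonium and no glutamine. Both media held 5 g/L glucose, so all fronds had an organic carbon source, and all fronds came from 1 clone.

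Asparagine synthetase moves the amide group of glutamine onto aspartate in an ATP-dependent reaction, which yields asparagine and glutamate. Asparagine is a nitrogen-rich amino acid that plants use to store and transport nitrogen. In land plants the enzyme is encoded by small gene families whose copies often differ in their response to light, sugars and nitrogen supply. The comparison described here asks how the transcript level of each copy, and its share of the family, differed between fronds fed glutamine, a substrate of the enzyme, and fronds fed nitrate and ammonium.

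The table gives 1 mean normalized count per gene and condition. From these means the whole reads of each of the 6 libraries were worked out for 11392 genes (69.7%), among them 4 of the 6 asparagine synthetase genes. Libraries are named below by depth within a condition, since they could not be tied to replicate numbers. The estimated depth was 35.8, 15.9 and 14.4 M reads on transcripts in the ONS libraries and 25.9, 23.0 and 8.32 M in the INS libraries (M, 1000000). The deepest INS library stood somewhat apart. Its Spearman correlation with the other INS libraries was 0.909 to 0.930 over 10301 genes, and with ONS libraries 0.793 to 0.887, where the other between-condition pairs gave 0.890 to 0.927. Genes for the RuBisCO protein LEMGIv51_A5_013057_1 and LEMGIv51_A5_013058_1, markers of green frond tissue, ranked 67 and 16 of all genes under ONS and 66 and 32 under INS. These ranks do not measure how alike the tissue make-up was. The study reports faster growth and a larger part of the dry weight in roots under ONS, and roots were not analysed separately. Counts are not divided by transcript length, so a level difference between copies may include their length. Fewer cells of a type that transcribes a gene and less RNA per cell cannot be told apart in whole fronds.

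Under the ONS condition the asparagine synthetase family gave fewer counts in sum, and a larger part of them came from a single copy. The authors' means of the 6 genes summed to 5182 under ONS, against 9320 under INS, a ratio of 0.556. Scaled to 1000000 summed means of all genes, this was 284 under ONS and 500 under INS. The median gene of the table, among those averaging 10 or more, had a log2 ratio of 0.043. The means of the copies did not share one direction: 3 were more than 4-fold lower under ONS, 2 lower by less than 2-fold and 1 higher. The higher mean was that of LEMGIv51_A5_003834_1, whose difference did not pass the test (limma adjusted p = 0.563). Means more than 4-fold lower were found for 2.30% of the 15249 genes averaging 10 or more. Past 2-fold, which the same 3 copies and no other exceeded, 7.39% of these genes were lower and 3.23% higher. As the sums have no replicate values, they carry no error or test.

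**Figure D1:**
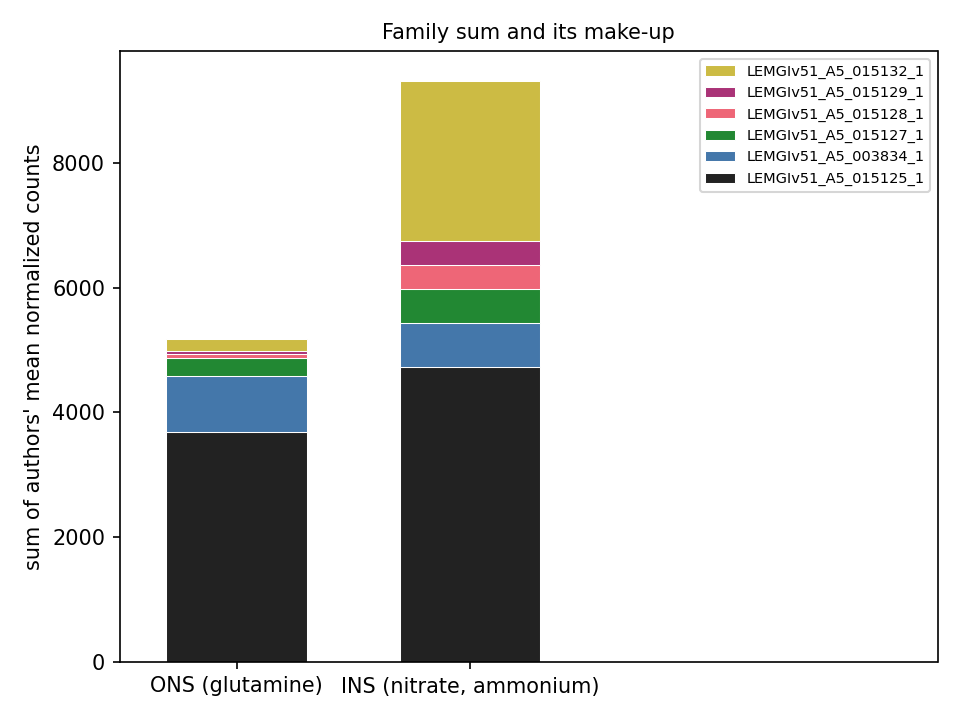
Sum of the authors' mean normalized counts of the 6 asparagine synthetase genes (y axis, from 0) under ONS (left) and INS (right), with each gene as a segment. The whole bar reached 5182 under ONS and 9320 under INS, and LEMGIv51_A5_015132_1 filled 3.77% of the ONS bar and 27.6% of the INS bar.

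LEMGIv51_A5_015125_1 gave most of the family's counts under both conditions. Its mean was 3683 under ONS and 4722 under INS, a log2 ratio of -0.36, and it ranked 880 of all genes under ONS and 688 under INS. Its share of the family sum was 71.1% under ONS and 50.7% under INS. Under ONS a larger share thus went with a lower level. This mean was too high to be resolved into single reads, so the difference has no replicate error.

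LEMGIv51_A5_015132_1 had the largest fold difference in the family and the largest part in the difference of the sums. Its mean was 195 under ONS and 2572 under INS, which is 13.2-fold lower under ONS (log2 ratio -3.72). Only 62 of the 15249 genes with a mean of at least 10 had a lower ratio. It was the second copy of the family by count under INS, with 27.6% of the sum, and the fourth under ONS, with 3.77%. This gene alone made up 57.4% of the difference between the family sums, and LEMGIv51_A5_015125_1 another 25.1%.

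In the ONS libraries LEMGIv51_A5_015132_1 had 425, 147 and 159 reads from the deepest to the shallowest, or 216, 168 and 201 normalized reads. The ONS libraries therefore lay close together, with a coefficient of variation (CV, SD over mean) of 12.6%. Its INS mean was reached by 65 different combinations of reads, so the INS libraries could not be given and no test was made. In 53 of these combinations every INS library lay above the highest ONS library. Across all combinations, the lowest INS value was 10.1 normalized reads. Which combination is the true one is unknown, and they need not be equally likely. The count therefore does not measure how probable it is that the groups do not overlap.

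The neighbouring numbers LEMGIv51_A5_015128_1 and LEMGIv51_A5_015129_1 gave nearly equal values and both fell under ONS. LEMGIv51_A5_015128_1 had 101, 65 and 30 reads in the deepest, middle and shallowest ONS library, against 539, 550 and 150 reads in the INS libraries in the same order. Normalized for depth, this was 51.4, 74.4 and 37.9 under ONS and 389, 446 and 336 under INS. All ONS values were below all INS values, by a wide margin, and the lowest raw count was 30. The limma log2 fold change was -2.86 ± 0.30 (SE, n = 3 libraries each, 95% interval -3.52 to -2.19), with a Benjamini-Hochberg adjusted p of 5.14e-04 in limma's fit over 10301 genes.

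LEMGIv51_A5_015129_1 had 89, 64 and 31 reads in the deepest, middle and shallowest ONS library, against 521, 521 and 153 reads in the INS libraries. The normalized values were 45.3, 73.2 and 39.1 under ONS and 376, 423 and 343 under INS. Again the groups did not overlap, and the same ONS library was the highest. Its log2 fold change was -2.88 ± 0.30 (SE, n = 3 libraries each, 95% interval -3.53 to -2.23; limma adjusted p = 4.71e-04). A gene was called when its adjusted p did not exceed 0.05 and its change exceeded 4-fold, and these 2 were the calls among the 4 family members tested. Among all genes tested, 2.44% were called lower by these limits and 0.301% higher.

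**Figure D2:**
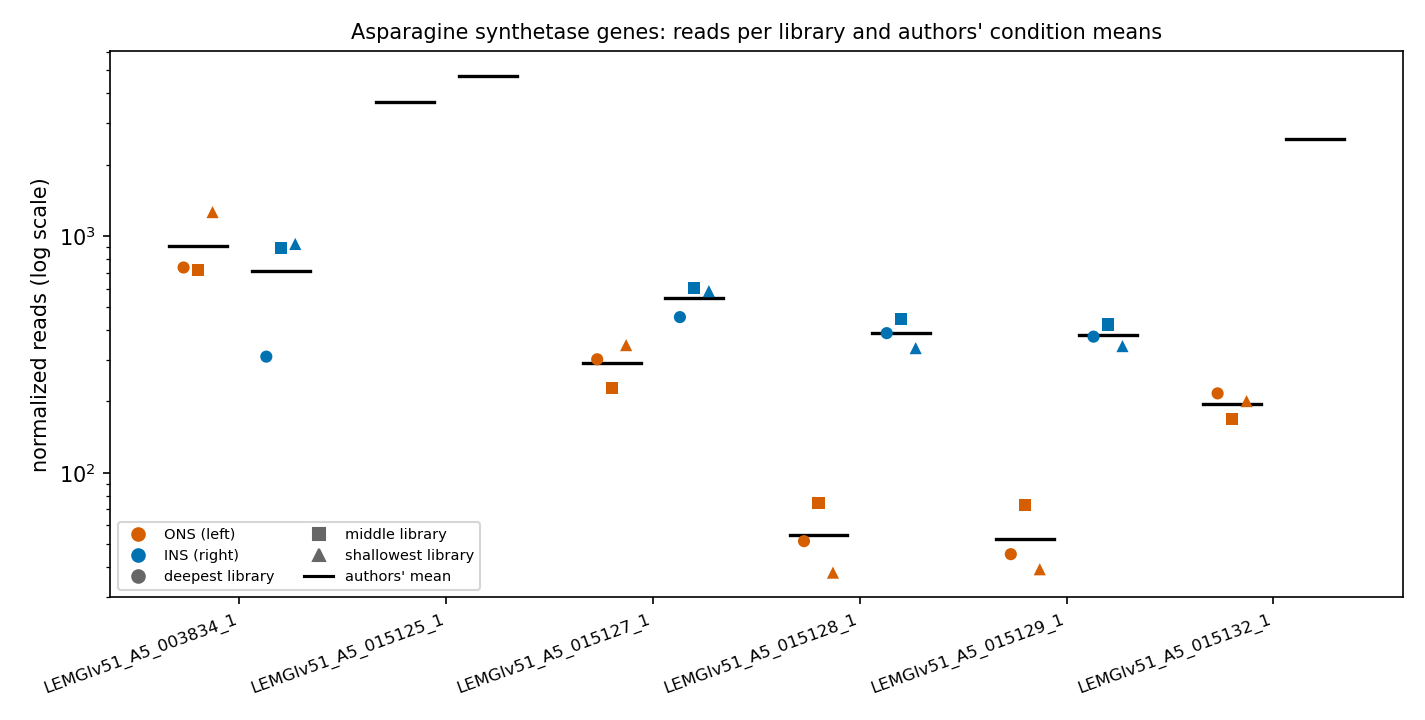
Normalized reads of each asparagine synthetase gene (y axis, log scale) in the libraries of ONS (left, orange) and INS (right, blue), with symbols for the depth rank of the library and bars for the authors' means. LEMGIv51_A5_015125_1 under both conditions and LEMGIv51_A5_015132_1 under INS are shown by their means alone. LEMGIv51_A5_015128_1 lay at 37.9 to 74.4 under ONS and 336 to 446 under INS.

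The reads of this pair kept a constant ratio in every library. LEMGIv51_A5_015128_1 held 53.2%, 50.4% and 49.2% of the pair's reads in the deepest, middle and shallowest ONS library, and 50.8%, 51.4% and 49.5% in the INS libraries. All 6 Wilson 95% intervals included 50%, the widest being 37.1% to 61.4% in the shallowest ONS library. These intervals cover counting error only. The SD of the pair's log2 ratio over the 6 libraries was 0.0815, against a median of 0.540 over 3087 pairs of consecutively numbered genes with means of at least 50. The counting sources used here do not say how a read that matches both transcripts was assigned, and their sequences were not analysed here. Whether the pair shares reads was not tested, so the values of the 2 copies are uncertain as separate measurements.

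LEMGIv51_A5_015127_1 was lower under ONS by less. It had 592, 200 and 274 reads in the deepest, middle and shallowest ONS library, against 630, 741 and 261 reads in the INS libraries. The normalized values were 302, 229 and 346 under ONS and 454, 602 and 585 under INS. The groups did not overlap, as was found for 14.1% of all genes tested in this direction. The limma log2 fold change was -0.91 ± 0.24 (SE, n = 3 libraries each, 95% interval -1.44 to -0.39), with an adjusted p of 0.0477 and a change short of 4-fold. At any fold, 5.23% of genes tested were lower with an adjusted p of at most 0.05. The adjusted p stayed at or below 0.05 in 5 of 14 alternative settings (range 0.0308 to 0.191), and was 0.0308 without the deepest INS library but 0.0551 to 0.191 without any 1 of the other 5 libraries. Since the family as a whole was lower, its share was 5.64% under ONS and 5.87% under INS.

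LEMGIv51_A5_003834_1, the copy with a number far from the others, was the single member with a higher mean under ONS. Its reads were 1445, 627 and 999 in the deepest, middle and shallowest ONS library, against 429, 1099 and 413 in the INS libraries. The normalized values were 736, 718 and 1261 under ONS and 309, 892 and 925 under INS. The groups overlapped, with the shallowest ONS library high and the deepest INS library low. Of all genes tested, 11.5% had every ONS library above every INS library, and 0.913% were higher with an adjusted p of at most 0.05 at any fold. The log2 fold change was 0.46 ± 0.40 (SE, n = 3 libraries each, 95% interval -0.41 to 1.33; limma adjusted p = 0.563) and did not pass the test. Without the deepest INS library it was -0.057. Replicates of this copy varied more than is usual for its level: its CV was 34.1% under ONS and 48.9% under INS, higher than in 88.1% and 96.5% of genes with a mean within 2-fold of its own in the same condition. Its share of the family sum was 17.5% under ONS and 7.61% under INS, the second copy under ONS and the third under INS.

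**Figure D3:**
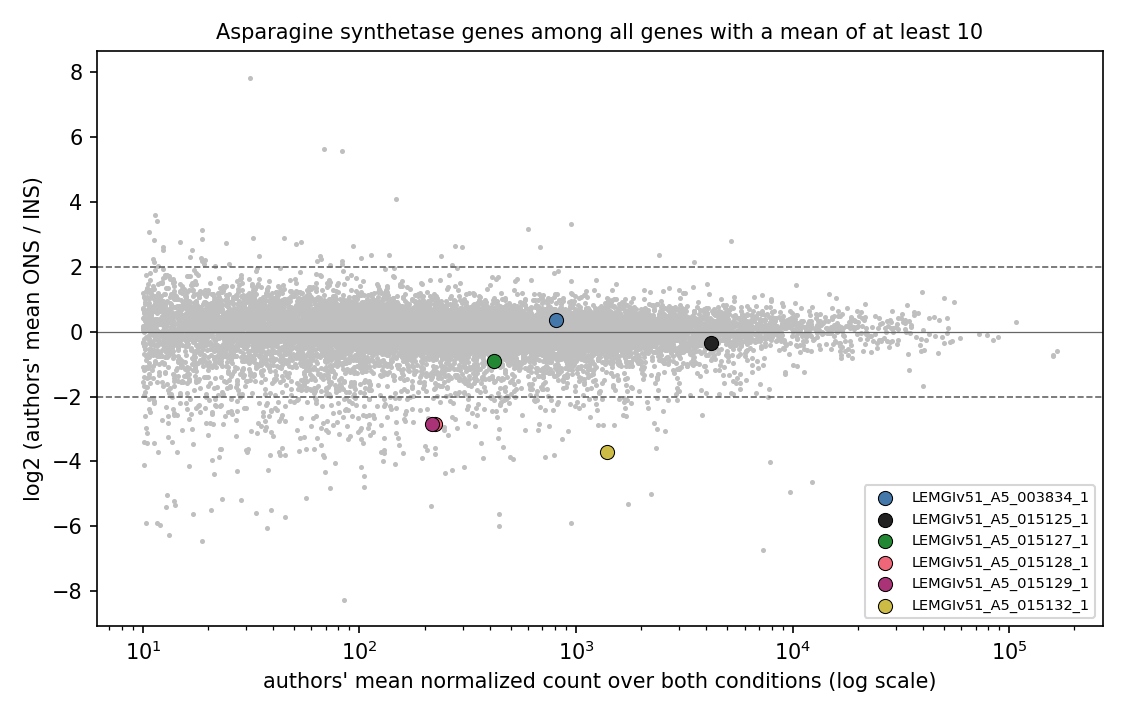
Log2 ratio of the authors' means, ONS over INS (y axis), against the mean normalized count over both conditions (x axis, log scale). Grey points are genes averaging 10 or more with counts in both conditions, coloured points are the 6 asparagine synthetase genes, and dashed lines mark 4-fold. LEMGIv51_A5_015132_1 (-3.72), LEMGIv51_A5_015129_1 (-2.86) and LEMGIv51_A5_015128_1 (-2.84, almost hidden by LEMGIv51_A5_015129_1) lay below the lower line.

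The order of the copies by count therefore differed between conditions. Under ONS it was LEMGIv51_A5_015125_1, LEMGIv51_A5_003834_1, LEMGIv51_A5_015127_1, LEMGIv51_A5_015132_1 and then the pair LEMGIv51_A5_015128_1 and LEMGIv51_A5_015129_1. Among the 5 copies with ONS values per library, neighbours in this order did not overlap, except for the pair. Under INS the order was LEMGIv51_A5_015125_1, LEMGIv51_A5_015132_1, LEMGIv51_A5_003834_1, LEMGIv51_A5_015127_1 and the pair. There LEMGIv51_A5_003834_1 (309 to 925) overlapped with LEMGIv51_A5_015127_1 (454 to 602), which in turn lay above both genes of the pair. The effective number of copies, the inverse of the summed squared shares, was 1.85 under ONS and 2.89 under INS. It counts the genes of the pair as separate copies, rests on the authors' means and has no replicate error.

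Whether copies differed in their response was tested by their shares within each library, which do not depend on the normalization for depth. The shares of a library are bound together, so a fall of some copies by itself raises the share of the others. A higher share of LEMGIv51_A5_003834_1 thus does not show a higher level of that gene. Its level did not pass the test (limma adjusted p = 0.563). Of the reads of the 4 genes with values per library, LEMGIv51_A5_003834_1 held 68.5 ± 5.58% under ONS and 33.4 ± 11.6% under INS (SD, n = 3 each; exact permutation test, two-sided, p = 0.1, adjusted 0.133). LEMGIv51_A5_015128_1 held 4.53 ± 2.28% under ONS and 19.9 ± 5.12% under INS, and LEMGIv51_A5_015129_1 held 4.34 ± 2.21% under ONS and 19.4 ± 4.64% under INS, with the same exact p of 0.1. For these genes the ONS and INS libraries did not overlap, and the last 2 nearly repeat each other. How often shares within other sets of genes do not overlap was not worked out. By level, 14.1% of single genes tested had all ONS libraries below all INS libraries and 11.5% had them above. The share of LEMGIv51_A5_015127_1 overlapped, at 22.7 ± 3.38% under ONS and 27.3 ± 2.20% under INS (exact p = 0.2). With 3 libraries against 3 the smallest possible p is 0.1, so none of these differences could reach 0.05.

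**Figure D4:**
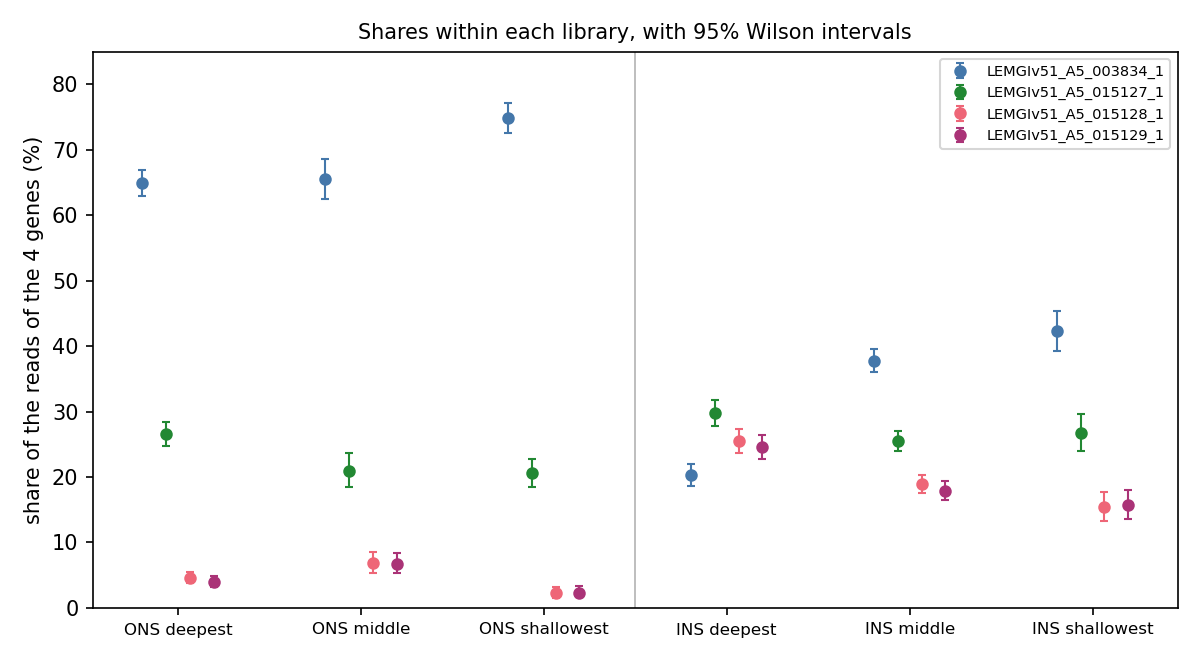
Share of each of the 4 genes with values per library in their summed reads (y axis, percent), for the ONS libraries (left) and the INS libraries (right), with Wilson 95% intervals for counting error. LEMGIv51_A5_003834_1 held 64.9 to 74.9% in the ONS libraries and 20.2 to 42.3% in the INS libraries, while LEMGIv51_A5_015128_1 and LEMGIv51_A5_015129_1 nearly coincided in each library.

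Log2 ratios between copies within a library gave the difference in response directly. LEMGIv51_A5_015127_1 exceeded LEMGIv51_A5_015128_1 by 2.43 ± 0.78 on the log2 scale under ONS and by 0.48 ± 0.29 under INS (SD, n = 3 each), a difference of 1.95 (exact permutation p = 0.1, adjusted 0.12 over 6 pairs). LEMGIv51_A5_003834_1 exceeded LEMGIv51_A5_015127_1 by 1.60 ± 0.29 under ONS and 0.23 ± 0.68 under INS, a difference of 1.37 with the same exact p. In 5 of 6 pairs the libraries of the conditions did not overlap. The exception was LEMGIv51_A5_015128_1 against LEMGIv51_A5_015129_1, whose ratio differed by 0.019 (exact p = 0.9). These pairs are not separate results, since they reuse the same genes and LEMGIv51_A5_015128_1 and LEMGIv51_A5_015129_1 nearly repeat each other. How often other gene pairs do not overlap was not worked out. Among single genes, 14.1% had all ONS libraries below all INS libraries and 11.5% had them above.

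Other genes of glutamine and aspartate metabolism were compared in 4 lists. No gene of these lists was called by limma, but only 7 of their 24 genes in the table could be tested, because most means were too high to be resolved into reads. The share called over all genes tested was 2.44% lower and 0.301% higher. At an unadjusted p under 0.05 there were 2 of the 7, against 18.6% of all 10301 genes tested, and the lowest adjusted p in limma was 0.197. The median log2 ratio of the authors' means was 0.24 for glutamine synthetase (4 genes), which forms glutamine from glutamate and ammonium, and -0.21 for glutamate synthase (2 genes), which returns its amide nitrogen to glutamate. It was 0.30 for aspartate transaminase (4 of 5 genes with a row), which supplies aspartate, and 0.27 for 14 of 17 genes of other glutamine-using enzymes. For the asparagine synthetase genes it was -1.87 and for all genes 0.043. The value of -1.87 lies midway between LEMGIv51_A5_015127_1 (-0.90) and LEMGIv51_A5_015128_1 (-2.84), where no copy lay. With LEMGIv51_A5_015128_1 and LEMGIv51_A5_015129_1 counted once, the middle gene was LEMGIv51_A5_015127_1 (-0.90). No gene of the other lists had a mean ratio past 4-fold. Of all 15249 genes averaging 10 or more, 351 were past 4-fold lower and 50 past 4-fold higher. With so few, an absence in lists this small does not set them apart.

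The glutamine synthetase gene LEMGIv51_A5_004150_1 had a mean of 3073 under ONS and 6215 under INS (log2 ratio -1.02). LEMGIv51_A5_010281_1, named for the same enzyme, had 1252 under ONS and 784 under INS (0.68). NADH-dependent glutamate synthase LEMGIv51_A5_013918_1 had a log2 ratio of -0.71, and the ferredoxin-dependent enzyme LEMGIv51_A5_013691_1 one of 0.29. The aspartate transaminase genes LEMGIv51_A5_017399_1 and LEMGIv51_A5_020786_1 had ratios of 0.48 and 0.37. Amidophosphoribosyltransferase LEMGIv51_A5_008210_1, an enzyme of purine synthesis, had a log2 ratio of -1.14, and carbamoyl-phosphate synthase LEMGIv51_A5_012593_1, which serves pyrimidine and arginine synthesis, one of 1.04. The sum over each list was 1.08 to 1.48 times as high under ONS as under INS, against 0.556 for asparagine synthetase.

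**Figure D5:**
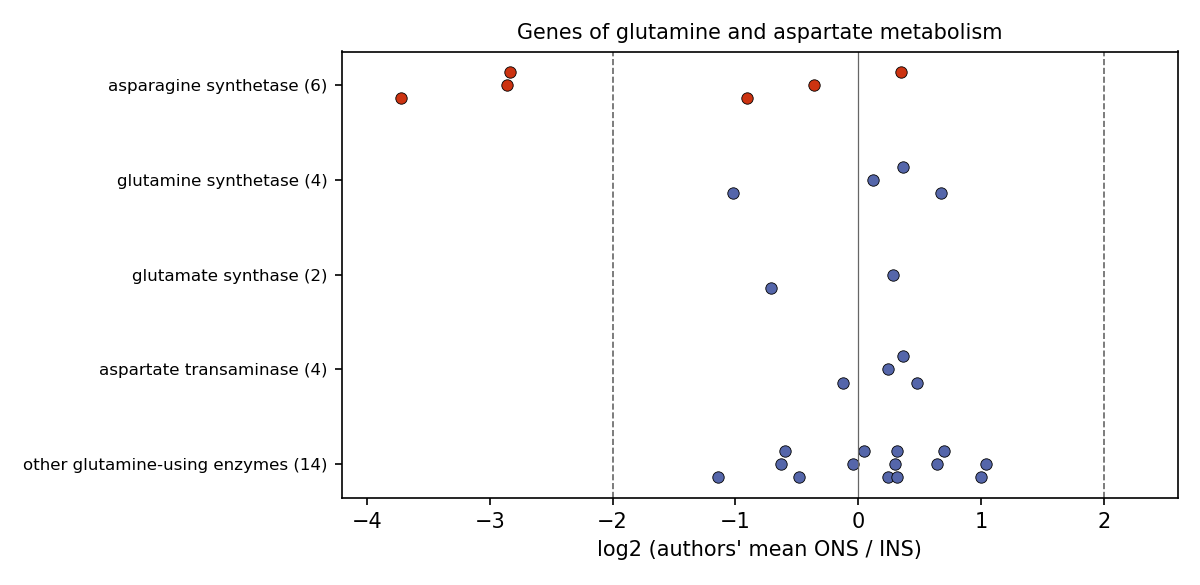
Log2 ratio of the authors' means, ONS over INS (x axis), for each gene of asparagine synthetase (red) and of the 4 other lists (blue), with the number of genes in the table beside each name and dashed lines at 4-fold. The asparagine synthetase genes ran from -3.72 to 0.35, while the genes of the other lists lay between -1.14 and 1.04.

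Of the 6 copies, 5 have identifiers close in number, LEMGIv51_A5_015125_1 to LEMGIv51_A5_015132_1. Other identifiers from LEMGIv51_A5_015120_1 to LEMGIv51_A5_015137_1 had a row in 6 of 13 cases, with log2 ratios of the means of -0.50 to 0.63. LEMGIv51_A5_015130_1, whose number falls among the asparagine synthetase genes, had a mean of 218 under ONS and 308 under INS. None of the 4 such genes tested had an adjusted p of at most 0.05 in limma (lowest 0.298), and 0 had an unadjusted p under 0.05. Over all genes tested, 5.23% were lower and 0.913% higher at this adjusted p, and 18.6% had an unadjusted p under 0.05. Positions on the genome were not analysed here, so nearby numbers are not shown to mean nearby genes.

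Patterns over the 6 libraries were compared with Pearson's r of the log2 values, as a description, since all points share the same libraries. The named genes outside the family most like LEMGIv51_A5_015128_1 and LEMGIv51_A5_015129_1 were sought among 74. They were fructose-bisphosphate aldolase LEMGIv51_A5_003048_1 (r = 0.957 and 0.947), phosphoglycerate mutase LEMGIv51_A5_009134_1 (0.942 and 0.943) and transketolase LEMGIv51_A5_017459_1 (0.933 and 0.939). In the same order, these genes were themselves lower under ONS, with limma log2 fold changes of -1.77, -1.28 and -2.60 (limma adjusted p = 0.0130, 0.0362 and 7.78e-04). A condition difference that genes share raises r, and joint regulation was not tested. Transketolase was also the named gene most like LEMGIv51_A5_015127_1 (0.953), followed by ribulose-phosphate 3-epimerase LEMGIv51_A5_003887_1 (0.830) and succinate dehydrogenase LEMGIv51_A5_010562_1 (0.818). LEMGIv51_A5_003834_1 was most like a glucose-6-phosphate/phosphate translocator, LEMGIv51_A5_012330_1 (0.981), 6-phosphofructokinase LEMGIv51_A5_005085_1 (0.980) and aspartate transaminase LEMGIv51_A5_020786_1 (0.958). Outside the family, among 7932 genes with values per library and a mean of at least 50, LEMGIv51_A5_019267_1 was most like LEMGIv51_A5_015129_1 (0.998). The name of LEMGIv51_A5_019267_1 was not analysed here. Within the family, LEMGIv51_A5_015128_1 correlated with LEMGIv51_A5_015129_1 at 0.999. LEMGIv51_A5_015127_1 correlated with LEMGIv51_A5_015128_1 at 0.821 and LEMGIv51_A5_003834_1 with LEMGIv51_A5_015127_1 at -0.0090.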

How the data were processed

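PolyA RNA of fronds (3 ONS and 3 INS libraries) was sequenced as 101 bp paired-end reads, which the authors aligned to transcripts predicted from the draft genome, using Bowtie, and normalized with DESeq (versions not given in the sources used here). The deposited table holds, as signal values, mean counts after the authors' scaling of each library by its DESeq size factor, over all libraries and per condition, printed to 10 significant digits. It also holds the authors' own fold changes, p-values and calls, which were not used.

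A condition mean adds up whole reads, each weighted by 1 of 3 library weights. The weights were found from the lowest means, and a gene was kept where 1 combination of reads in each condition gave its means. All means under 1000 had a combination. None of the means of 10 to 100 had one when the value was shifted. Means above 100 were not checked in this way. Of the means under 1000, 11657 of 12769 under ONS and 12589 of 12633 under INS had a single combination. On simulated means, all 4777 single solutions were exact. These means were built and solved with the same weights, so the simulation does not test the weights themselves. Values of log2(normalized reads + 1), with a pseudocount of 1, were tested with limma 3.58.1 (R 4.3.3, mean-variance trend) over the 10301 genes averaging 10 or more. A call needed an adjusted p of at most 0.05 and more than a 4-fold change. Fold changes of low genes are understated on this scale. In simulated data for ONS against INS over 10301 genes, 91.5% of 200 genes changed 6-fold were called and 0 unchanged genes. The simulation gave every gene the same dispersion (spread beyond counting error) and had no library that stood apart. It therefore does not give the error rate of the calls in the real libraries. Shares and ratios were compared by exact permutation. Ratios of the authors' means carry no test.

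Named genes are the 6 members, in every list the 2 with the largest ratio of means (mean of at least 50), and the genes most alike over libraries, those outside the reaction list being left out but for 1. Lists follow the enzyme names of the study's reaction list, which also gives expression from these libraries. Members and lists were chosen with earlier results of these data known. Alternatives were pseudocounts, filters, scaling, the model, thresholds and each library left out.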

Additional observations from a re-analysis of the deposited data

How the results depend on the processing

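No paired analysis was possible because the libraries behind the condition means carry no replicate numbers. The calls of LEMGIv51_A5_015128_1 and LEMGIv51_A5_015129_1 held in all 14 alternatives run for each (log2 fold changes -3.11 to -2.63 and -3.14 to -2.70, adjusted p in limma 2.87e-04 to 0.00711 and 2.63e-04 to 0.00699). LEMGIv51_A5_003834_1 ranged from -0.057 to 0.73 with single libraries left out, the lowest without the deepest INS library (limma adjusted p = 0.944). LEMGIv51_A5_015127_1 ranged from -1.04 to -0.75. The log2 ratio of LEMGIv51_A5_015128_1 to LEMGIv51_A5_015129_1 was -0.045 without the deepest ONS library, -0.012 without the shallowest INS library and up to 0.068 without others, against 0.019 with all libraries. The ratio of the family sums, 0.556, became 0.497 without LEMGIv51_A5_003834_1, 0.326 without LEMGIv51_A5_015125_1, 0.739 without LEMGIv51_A5_015132_1 and 0.303 as a geometric mean. With the pair LEMGIv51_A5_015128_1 and LEMGIv51_A5_015129_1 counted once it was 0.574, and under INS the share of LEMGIv51_A5_015125_1 was 52.8% and that of LEMGIv51_A5_015132_1 28.8%. Over all genes, 251 were called lower and 31 higher. These counts were 153 and 19 at a mean of at least 50, 539 and 94 with no fold threshold, and 511 and 89 at 2-fold. With a pseudocount of 5, 18 genes were higher, and 19 at an adjusted p of at most 0.01. Without single libraries the counts were 199 to 265 lower and 19 to 40 higher, the 19 without the middle ONS library. The cause of these shifts was not tested. Genes with means over about 1000 could not be tested, among them LEMGIv51_A5_015125_1 and LEMGIv51_A5_015132_1. Some genes with lower means could not be tested either, since more than 1 combination of reads gave a mean.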

Other observations

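Among 3087 pairs of consecutively numbered genes with means of at least 50, 3 had a smaller SD of the log2 ratio over the 6 libraries than LEMGIv51_A5_015128_1 and LEMGIv51_A5_015129_1, and 1 other pair was at least as close in both the SD and the mean ratio. For the next pair down in number, LEMGIv51_A5_015127_1 and LEMGIv51_A5_015128_1, the SD was 1.19.

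Beside the genes chosen by rule, another glutamine-using enzyme had a ratio of about the same size as carbamoyl-phosphate synthase. Phosphoribosylformylglycinamidine synthase LEMGIv51_A5_012547_1, an enzyme of purine synthesis, had a log2 ratio of the means of 1.00. It was picked after its values were seen and has no values per library, so no test was made.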
